A study of Mus musculus with 36 samples.

Results

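Chemokines are small secreted proteins that direct the movement of leukocytes and other cells along gradients, and they act through receptors of the G protein-coupled family. They are grouped by the spacing of their first cysteines into CC, CXC and CX3C ligands (Ccl, Cxcl and Cx3cl1), whose receptors are named Ccr, Cxcr and Cx3cr1. In glands and other epithelial organs some of them are made by the epithelium or the stroma at rest, and others are induced in macrophages and other leukocytes during inflammation. The genes described here were chosen by name alone: a symbol of Ccl, Cxcl, Ccr or Cxcr followed only by digits, together with Cx3cl1 and Cx3cr1, with at least 10 unique molecular identifiers (UMIs, each counting 1 captured RNA molecule) over the 30 single-cell RNA libraries. The rule found 49 names in the tables and kept 43 of them, out of 31102 genes with at least 1 UMI and 21303 with at least 10. The 43 were 30 ligands, of which 16 were CC, 13 CXC and 1 CX3C, and 13 receptors, of which 8 were CC, 4 CXC and 1 CX3C. The 6 names below the minimum were Ccl19 with 7 UMIs, Ccr3 with 5, and Ccl24, Ccr8, Cxcr1 and Cxcr5 with 4 each.

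The libraries were made from submandibular salivary glands of C57BL/6 mice of both sexes, each gland dissociated and its live cells sorted. Double-mutant mice carried a beta-catenin gain-of-function and a Bmpr1a loss-of-function allele, both switched on by K14-Cre, a recombinase driven by a keratin promoter of basal epithelial cells, together with an EYFP reporter. Control mice, given as wildtype or control in the labels, carried K14-Cre and the EYFP reporter according to the study's methods, so both genotypes had Cre and EYFP. The alleles were altered in the K14-Cre lineage, which leukocytes, fibroblasts and endothelium do not belong to. Drop-seq of methanol-fixed cells covered 6 control and 7 double-mutant glands at postnatal day 40 (P40) and 6 control and 7 double-mutant glands at P90. CITE-seq, which counts RNA together with antibody-linked tags on unfixed cells, covered 2 control and 2 double-mutant glands at P70, and bulk RNA-seq of undissociated glands gave 1 control library at P70 and 1 double-mutant library at P100. Values per gland are in CPM, the UMIs of a gene scaled to a common total over the kept cells of a library. Log2 changes come from fits that scale libraries by trimmed means (TMM) and, for Drop-seq, hold terms for sex and stage. They can therefore differ from the plain CPM in size and at times in sign. UMIs were counted at transcript ends and are not divided by length.

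After filtering, 23346 Drop-seq cells and 2535 CITE-seq cells remained, with between 650301 and 6994504 UMIs per Drop-seq library and between 670322 and 2205865 per CITE-seq library. Barcodes were shared by 20 of 435 pairs of libraries, at most 1 barcode a pair. In 2 double-mutant libraries, P40 replicate 1 and P90 replicate 5, the sex-linked genes went against the labelled sex, so their labels are in doubt. Both control CITE-seq libraries held Xist as well as Y-linked UMIs. The control libraries of P40 and of P90 came from different batches, so among controls the effects of stage and of batch cannot be told apart. In bulk or whole-gland sums, fewer cells of a type and less RNA per cell cannot be told apart.

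In whole glands, 19 of the 25 members that could be tested were higher in double-mutant glands and 0 were lower (edgeR quasi-likelihood test), across 14 double-mutant and 12 control Drop-seq glands. At an unadjusted p under 0.05, 20 were higher and 1, Cxcl17, was lower. The background for that direction was 14.4% of the 10488 genes tested (1515 genes), and 22.0% of genes were called in either direction. The median log2 change of the 25 tested members was 1.58, beside 0.02 over all genes tested. The 19 were 14 ligands and 5 receptors. The other 18 members had too few UMIs for the fit, so these 25 are not all of the family. With no filter on low counts, 29 of the 43 were higher and Cxcl17 was lower, beside 7.31% of genes called higher. Without the 2 libraries whose sex genes went against their labels, 18 members were called, beside 1103 of 10585 genes called higher and 468 lower. Within the batches that held both genotypes (19 libraries, 10 of them control, with batch in the fit), 20 were called, 19 higher and Cxcl17 lower, and Ccl11, Ccl8 and Ccr1 were among those that lost their call. The share over all genes in that fit is not given, so its count has no background beside it.

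Ccl6, Ccl9, Ccl7 and Ccl2 are CC ligands known to attract monocytes or to be made by macrophages. Ccl6, a macrophage and myeloid chemokine of rodents, had a lowest, median and highest value of 0, 1.27 and 6.02 CPM in control glands of P40 and of 6.30, 11 and 93.8 CPM in the double-mutant glands of that age. At P90 the same 3 values of Ccl6 were 0.595, 2.88 and 6.32 CPM in controls and 14, 59.7 and 203.8 in double-mutant glands. The groups did not overlap at either stage, and the change over both stages was 3.69 ± 0.47 on the log2 scale (SE; adjusted p = 1.63e-05, edgeR quasi-likelihood test). Ccl9, its neighbour on the chromosome, ranged from 0 to 7.04 CPM in the 12 control glands and from 6.97 to 164.8 in the 14 double-mutant glands. Ccl9 did not overlap within either stage either, and its log2 change was 2.32 ± 0.37 (adjusted p = 0.0002). Ccl7, a ligand of the monocyte receptor Ccr2, had medians of 1.13 and 5.69 CPM in controls at P40 and P90, and of 11.3 and 46.7 in double-mutant glands. Its log2 change was 2.39 ± 0.34 (adjusted p = 6.35e-05), and the genotypes did not overlap at P40 but did at P90, where 6 of 7 double-mutant libraries were above all controls. Ccl2, the main monocyte attractant, had control medians of 1.93 CPM at P40 and 17.4 at P90 and double-mutant medians of 20.7 and 40.9, a log2 change of 1.58 ± 0.35 (adjusted p = 0.00348), and at P90 5 of 7 double-mutant libraries were above all controls.

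Ccl8 was at or near 0 in most control glands. It was at 0 in 4 of 6 control libraries at P40, where the highest value was 0.6 CPM, and in 2 of 6 at P90, where 1 library reached 14.9 CPM. In double-mutant glands Ccl8 had a median of 4.82 CPM at P40 and 15.9 at P90, and 1 library of each stage was at 0. The log2 change was 3.23 ± 0.68 (adjusted p = 0.00204). Ccl11, an eosinophil attractant (also called eotaxin), was low throughout, from 0 to 3 CPM in controls and from 0 to 12.4 in double-mutant glands, with a log2 change of 1.76 ± 0.43 (adjusted p = 0.00657). For Ccl11 and Ccl8 the groups overlapped.

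Among the CXC ligands, Cxcl14 and Cxcl12 are known from stroma and epithelium at rest. Cxcl14 had a lowest, median and highest value of 1.67, 6.17 and 18.6 CPM in the P40 controls and of 15.8, 59.0 and 91.4 in the P40 double-mutant glands, which overlapped slightly. At P90 these were 1.76, 5.80 and 12.9 CPM in controls and 18.8, 72.8 and 217.8 in double-mutant glands, without overlap. The log2 change of Cxcl14 was 2.63 ± 0.39 (adjusted p = 9.85e-05). Cxcl12, which holds and guides cells that carry Cxcr4, had control medians of 3.84 CPM at P40 and 2.64 at P90 and double-mutant medians of 25.8 and 66.1, a log2 change of 2.31 ± 0.49 (adjusted p = 0.00219). Its receptor Cxcr4 moved the same way, with control medians of 1.40 and 5.58 CPM, double-mutant medians of 9.40 and 34.1 and a log2 change of 2.47 ± 0.53 (adjusted p = 0.00243).

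Cxcl1, Cxcl2 and Cxcl3 attract neutrophils through Cxcr2 and lie in the same cluster of genes on chromosome 5. Cxcl2 was the member with the most UMIs in 12 of the 14 double-mutant glands and in 3 of the 12 control glands. Its lowest, median and highest values at P40 were 22.8, 55.5 and 319.1 CPM in controls and 189.5, 329.7 and 1797 in double-mutant glands. At P90 they were 20.9, 222.4 and 305.8 CPM in controls and 185.04, 663.5 and 1648 in double-mutant glands. The groups overlapped at both stages, and the log2 change was 1.54 ± 0.39 (adjusted p = 0.00769). Cxcl1 changed by 1.07 ± 0.29 (adjusted p = 0.0127) and Cxcl3, which had 13 UMIs in all control glands and 98 in all double-mutant glands, by 2.73 ± 0.65 (adjusted p = 0.00502). Cxcl5, of the same group, was at 0 in each of the 6 control glands at P40 and reached 13.8 CPM in double-mutant glands there.

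The remaining calls in whole glands were of receptors and of ligands with smaller changes. The monocyte receptors Ccr2 and Cx3cr1 rose by 1.84 ± 0.46 (adjusted p = 0.00716) and 1.59 ± 0.41 (adjusted p = 0.00796) on the log2 scale. Ccr1 rose by 1.83 ± 0.48 (adjusted p = 0.00957) on the same scale. Cxcl10, an interferon-induced ligand of Cxcr3, rose by 1.37 ± 0.43 (adjusted p = 0.0249), and lost its call without the 2 libraries of doubtful sex. The membrane-anchored ligands Cxcl16 and Cx3cl1 rose by 0.91 ± 0.27 (adjusted p = 0.0197) and 0.90 ± 0.27 (adjusted p = 0.0185). The 6 tested members that did not pass were Cxcl17 (-0.63 ± 0.26, adjusted p = 0.0746), Ccl4 (0.91 ± 0.37, adjusted p = 0.0757), Ccl5, Ccl12, Ccl3 and Ccl28. Cxcl17 and Ccl28 are mucosal chemokines made by glandular epithelium.

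**Figure D1:**
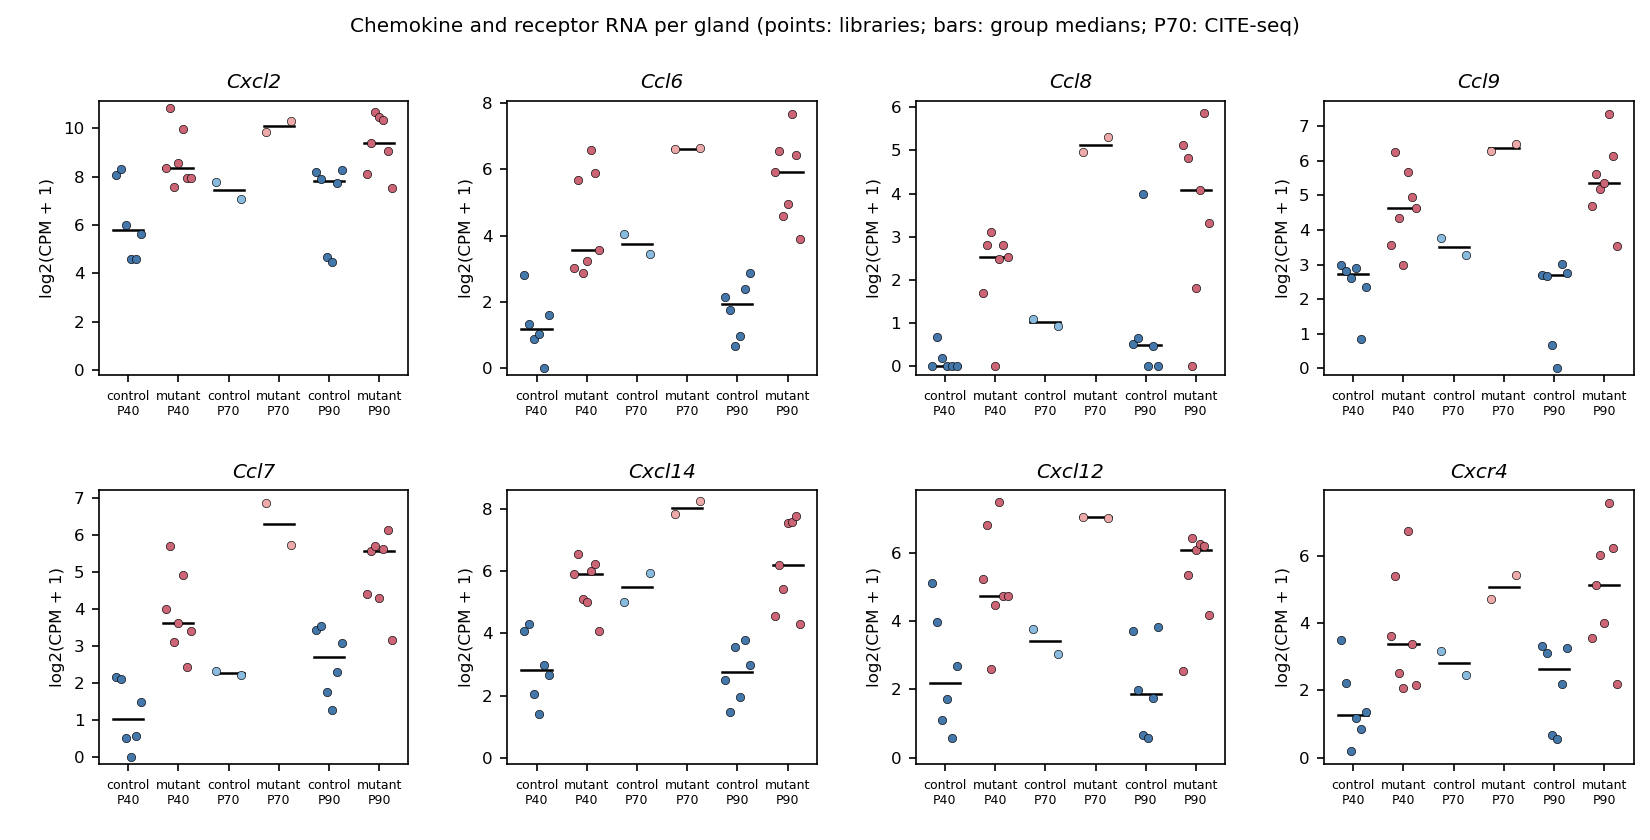
Level of Cxcl2, Ccl6, Ccl8, Ccl9, Ccl7, Cxcl14, Cxcl12 and Cxcr4 in each library, as log2(CPM + 1), with 1 panel per gene, points for libraries and bars for group medians; control groups are blue and double-mutant groups red, at P40 and P90 (Drop-seq) and P70 (CITE-seq). The double-mutant points of Ccl6 and Ccl9 sit above the control points of the same stage, and those of Cxcl2 overlap the controls at P40 and P90.

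At P40 alone the genotypes differed in fewer genes, with 1.29% of the 11420 genes tested called higher in double-mutant glands (147 genes, and 1.36% in either direction) and 5 of the 30 tested members among them. These were Ccl7 (2.76 ± 0.50, adjusted p = 0.008), Ccl6 (3.44 ± 0.67, adjusted p = 0.0129), Cxcl14 (2.06 ± 0.50, adjusted p = 0.0375), Ccl8 (4.88 ± 1.2, adjusted p = 0.0398) and Ccl2 (1.99 ± 0.50, adjusted p = 0.0452). The count at P40 depended on single libraries: without control replicate 3 it fell to 1, and without control replicate 2 it was 15. The calls over all genes moved as well, to 506 of 11928 higher without control replicate 2. The share over all genes without control replicate 3 is not given. Counting libraries instead of fitting, every double-mutant library was above every control library for 6 of the 43 members, Ccl2, Ccl6, Ccl7, Ccl9, Ccr10 and Cxcl1, beside 1.53% of 20491 genes. Ccr10, the receptor of Ccl28 on antibody-secreting cells, had 0 UMIs in the control glands at P40 and 50 in the double-mutant glands. Against the 3 counts that a count of 0 allows over the pooled controls, Ccr10 was at least 22.9-fold higher.

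At P90, 13 of the 30 tested members were higher in double-mutant glands, 10 ligands and 3 receptors, beside 5.44% of the 11420 genes tested (621 genes), with 8.07% called in either direction. Cxcl14 (3.24 ± 0.54, adjusted p = 0.00114), Ccl9 (3.0 ± 0.52, adjusted p = 0.00148) and Ccl6 (3.89 ± 0.68, adjusted p = 0.0017) led, and these were the 3 members, of 43, whose double-mutant libraries were all above the control libraries at P90 (0.722% of genes). Cxcl13, the B-cell attractant of lymphoid tissue, had 0 UMIs in the 6 control glands and 100 in the double-mutant glands, where it was at 0 in 1 library and had a median of 7.78 CPM and a highest value of 14.8. Against the 3 counts that a count of 0 allows over the pooled controls, it was at least 34.0-fold higher. The edgeR quasi-likelihood test called it (adjusted p = 0.00785). Cxcl13 and Cxcl5 (2 UMIs in these controls, 49 in the double-mutant glands) met the low-count filter through the double-mutant glands, where they were high. Their calls therefore add no support beyond the counts. The others called were Ccl7, Ccl8, Cxcl1, Cxcl3, Cxcl5, Cxcl12, Ccr1, Ccr2 and Cxcr4. Without the 2 libraries of doubtful sex, of which 1 is at P90, the count fell from 13 to 8, and Ccl8, Ccr1, Ccr2 and Cxcr4 were among those that lost their call. The calls over all genes fell as well, to 244 of 11122 higher and 124 lower. Leaving out single libraries gave between 6 calls, without double-mutant P90 replicate 6, and 14, for example without double-mutant P90 replicate 1. The calls over all genes moved as well, to 295 of 11339 higher in the first case and 756 of 11386 in the second.

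The calls at both stages shared 4 members, Ccl6, Ccl7, Ccl8 and Cxcl14. Over the alternative settings Ccl8 lost its call in 8 of 34 at P40 and in 22 of 34 at P90. At P40 Cxcl14 lost its call in 10 of 35 and Ccl6 in 1 of 35, while Ccl7 kept both calls throughout. The difference between the stages in the genotype effect was tested directly, and 0 of 30 members passed with edgeR and 0 of the 19 that DESeq2 tested, with 2 at an unadjusted p under 0.05 in edgeR and 0.00876% of all genes called. From P40 to P90 in double-mutant glands, 0 of 30 members passed with edgeR and 0 of the 35 that DESeq2 tested, and 5 had an unadjusted p under 0.05 with edgeR, beside 0.0% of all genes. The largest of these stage differences was that of Cxcl13 (3.60 ± 0.91 on the log2 scale, adjusted p = 0.312), whose double-mutant libraries were at 0 in 5 of 7 glands at P40 and in 1 of 7 at P90. In control glands, where stage and batch cannot be told apart, 0 of 30 members and 5.04% of all genes passed with edgeR, with 6 members at an unadjusted p under 0.05. DESeq2 called 3 of the 37 members it tested there, beside 830 of 16164 genes higher at P90 and 113 lower.

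**Figure D2:**
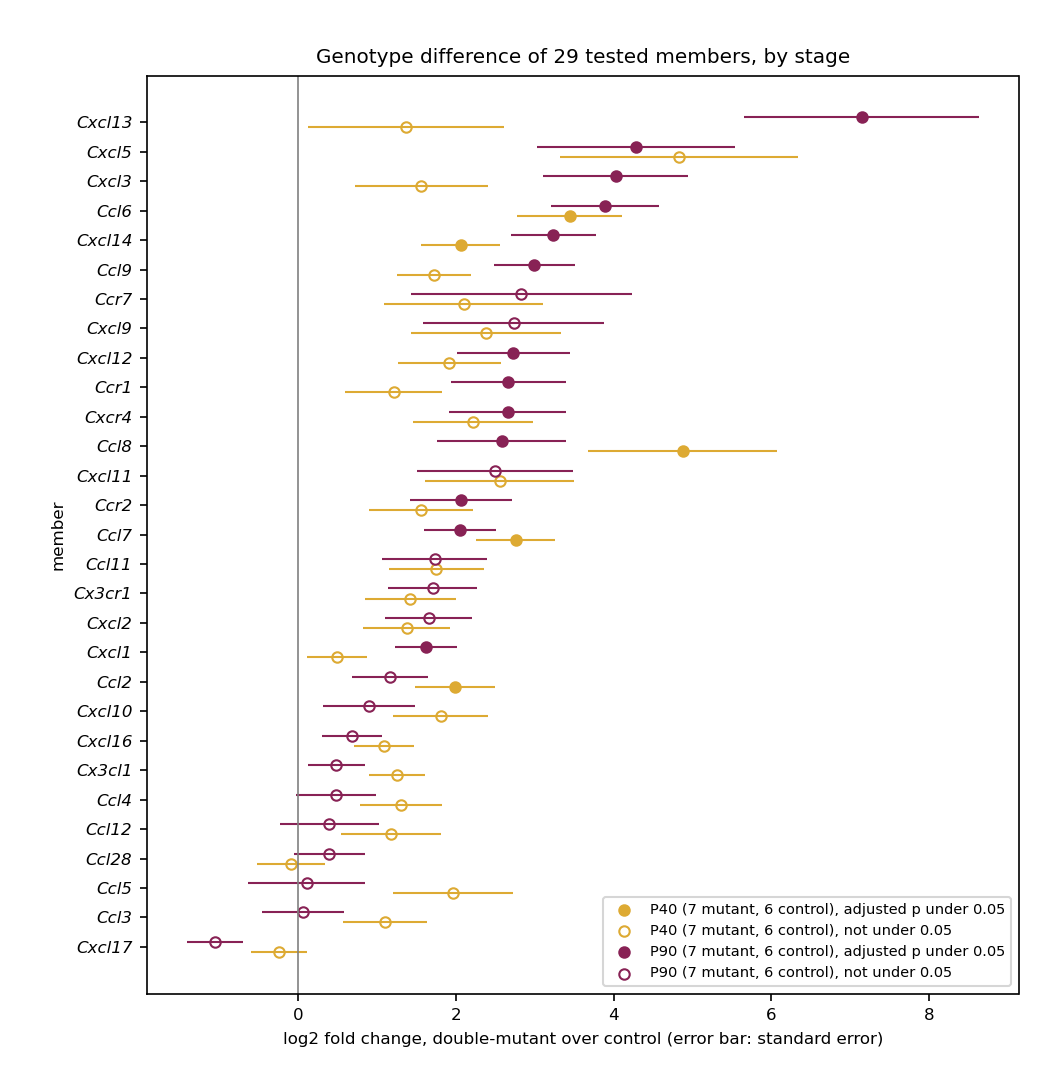
Log2 change between double-mutant and control glands (x axis, bars of 1 standard error) for tested chemokine and receptor genes (y axis), at P40 in yellow and P90 in purple, filled where the adjusted p is under 0.05. Ccl6 lies at 3.44 and 3.89, Cxcl13 stands at the top with 1.37 at P40 and 7.14 at P90, and Cxcl17 lies below 0 at both stages. In plain CPM the P40 median of Cxcl17 was 68.2 in control and 102.0 in double-mutant glands.

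In the unfixed P70 glands, 17 of 30 tested members were higher and 1 lower in the 2 double-mutant than in the 2 control libraries, beside 9.24% of 10058 genes called higher and 13.7% called in either direction. Both double-mutant glands were labelled female and the controls 1 male and 1 female, and the P70 fit held no term for sex. Sex and genotype therefore cannot be fully told apart at P70. The shared calls with the Drop-seq glands were 14. Ccr10 led, with 0.572 and 0.907 CPM in the controls and 38.8 and 43.6 in the double-mutant libraries (4.94 ± 0.51 on the log2 scale, adjusted p = 0.00203). Cxcl12 followed with 7.25 and 12.6 against 128.3 and 132.5 CPM (3.02 ± 0.34, adjusted p = 0.00317), and Ccl8 with 0.907 and 1.14 against 30 and 38.8 CPM (4.26 ± 0.49, adjusted p = 0.00355). Ccl28, the epithelial ligand of Ccr10, was the member called lower, with 31.7 and 47.5 CPM in the controls and 19.1 and 25.4 in the double-mutant libraries (-1.55 ± 0.34, adjusted p = 0.0255). That call was lost in 4 of 9 alternative settings, DESeq2 among them. In the Drop-seq glands the medians of Ccl28 went the other way, at 25.1 CPM in control and 47.8 in double-mutant glands, without a call. Ccl3, Ccl4, Ccl5 and Cxcl17 did not pass there, with log2 changes of 0.53, 0.51, 1.17 and -0.17. With 2 libraries a group the 11 calls left without double-mutant replicate 2 rest on a single double-mutant gland, which is assumed to vary like the others.

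The cells that carried these transcripts were found by clustering all cells on other genes, with the 43 members held out, and naming clusters by marker genes. A name such as myeloid-like rests on those markers. The levels below pool the Drop-seq cells of a type over all glands and are a description, with no test between types. Their 95% intervals are exact Poisson ones and cover counting error only. By the highest pooled level, 15 of the 30 ligands led in myeloid-like cells, 6 in fibroblast-like, 3 in luminal Clu+-like, 2 in T/NK-like and 1 each in ductal Klk1+-like, luminal Dcpp1+-like, pericyte-like and cancer stem cell (CSC)-like cells. Of the 13 receptors, 6 led in myeloid-like, 5 in T/NK-like and 2 in Ig-producing-like cells. At another clustering resolution 39 (0.5) and 43 (2.0) of the 43 kept their leading type, and 38 did so when the level was the mean over glands.

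In myeloid-like cells (2567 cells, defined by Lyz2, Cd74, C1qa, C1qb, Csf1r, Fcer1g and Tyrobp), Cxcl2 stood at 6976 CPM (6872 to 7082), and these cells held 92.3% of all its UMIs. At least 1 Cxcl2 UMI was found in 73.0% of them (71.2 to 74.7, exact binomial), beside 3.74% of the acinar-like cells. The median depth was 633 UMIs per myeloid-like and 3848 per acinar-like cell. The acinar-like share is given as the background, and the myeloid-like share was far above it at a lower depth. Ccl4 (5603 CPM) and Ccl3 (2124 CPM), which attract T cells and macrophages, followed, with 90.6% and 92.0% of their UMIs in these cells. Cxcl1 (960.8 CPM), Cxcl16 (835.0), Ccl6 (450.8), Ccl2 (426.3), Cx3cr1 (338.9), Cxcl10 (292.8), Ccl9 (282.1), Ccl12 (255.6), Ccl7 (215.2), Ccl8 (145.4) and Ccr1 (95.1) were also highest there. Of these, Cxcl1 was spread most widely, with 38.1% of its UMIs in myeloid-like cells, and Ccl7 was not above the second type, fibroblast-like cells (158.6 CPM), beyond the counting interval. The members with fewest UMIs that led in myeloid-like cells were Cxcl3, Ccl17, Ccl22, Ccr7, Cxcr2 and Ccr6, between 3.27 and 40.8 CPM.

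The 5 receptors that led in lymphoid cells of the T/NK-like group (468 cells) were Cxcr4, Ccr2, Cxcr6, Cxcr3 and Ccr4, and its 2 ligands were Ccl5 and Ccl1. Ccl5, a product of cytotoxic and memory lymphocytes, stood at 1791 CPM (1670 to 1919) and was found in 42.7% of these cells, beside 0.545% of the acinar-like cells. Cxcr6, the receptor of Cxcl16, stood at 96.9 CPM and Ccl1 at 46.3 (21 UMIs in 6 cells), both at or near 0 elsewhere. Cxcr4 (215.9 CPM against 207.8 in myeloid-like cells) and Ccr2 (138.8 against 101.7) did not differ between the leading types beyond their intervals, and Ccr4 rested on 1 UMI there, with 24 of its 26 UMIs in acinar-like cells. In the Ig-producing-like cells (162 cells), Ccr10 stood at 271.7 CPM (217.9 to 334.7) with 95.7% of its UMIs, and was found in 29.6% of these cells against 0.0266% of the acinar-like cells. Ccr9, the gut-homing receptor, had 5 UMIs there and did not stand above its second type.

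Stromal and epithelial types carried the other ligands. Cxcl14 stood at 2555 CPM in fibroblast-like cells (400 cells, 61.1% of its UMIs), and Ccl11 at 371.5 CPM with 90.4% of its UMIs. Cxcl13 stood at 121.0 CPM in fibroblast-like cells, with 58 UMIs in 12 of the 400. Cxcl12 was at 605.2 CPM in fibroblast-like and 555.6 in endothelial-like cells, which did not differ beyond their intervals, and endothelial-like cells held 66.1% of its UMIs. Cx3cl1 and Cxcl9 led in fibroblast-like cells as well, within the interval of the next type. Cxcl17 was an epithelial ligand, at 652.6 CPM in ductal Klk1+-like and 575.5 in ductal Egf+-like cells, and Ccl28 was spread over the glandular epithelium, highest in luminal Dcpp1+-like cells (81.4 CPM) with 48.9% of its UMIs in acinar-like cells. Cxcl5, Ccl20 and Cxcl11 led in luminal Clu+-like cells at 40.7, 23.1 and 13 CPM, none of them above the second type beyond the interval. Ccl25 (5 UMIs in CSC-like cells) and Cxcl15 (1 UMI in pericyte-like cells) rested on too few UMIs to place.

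**Figure D3:**
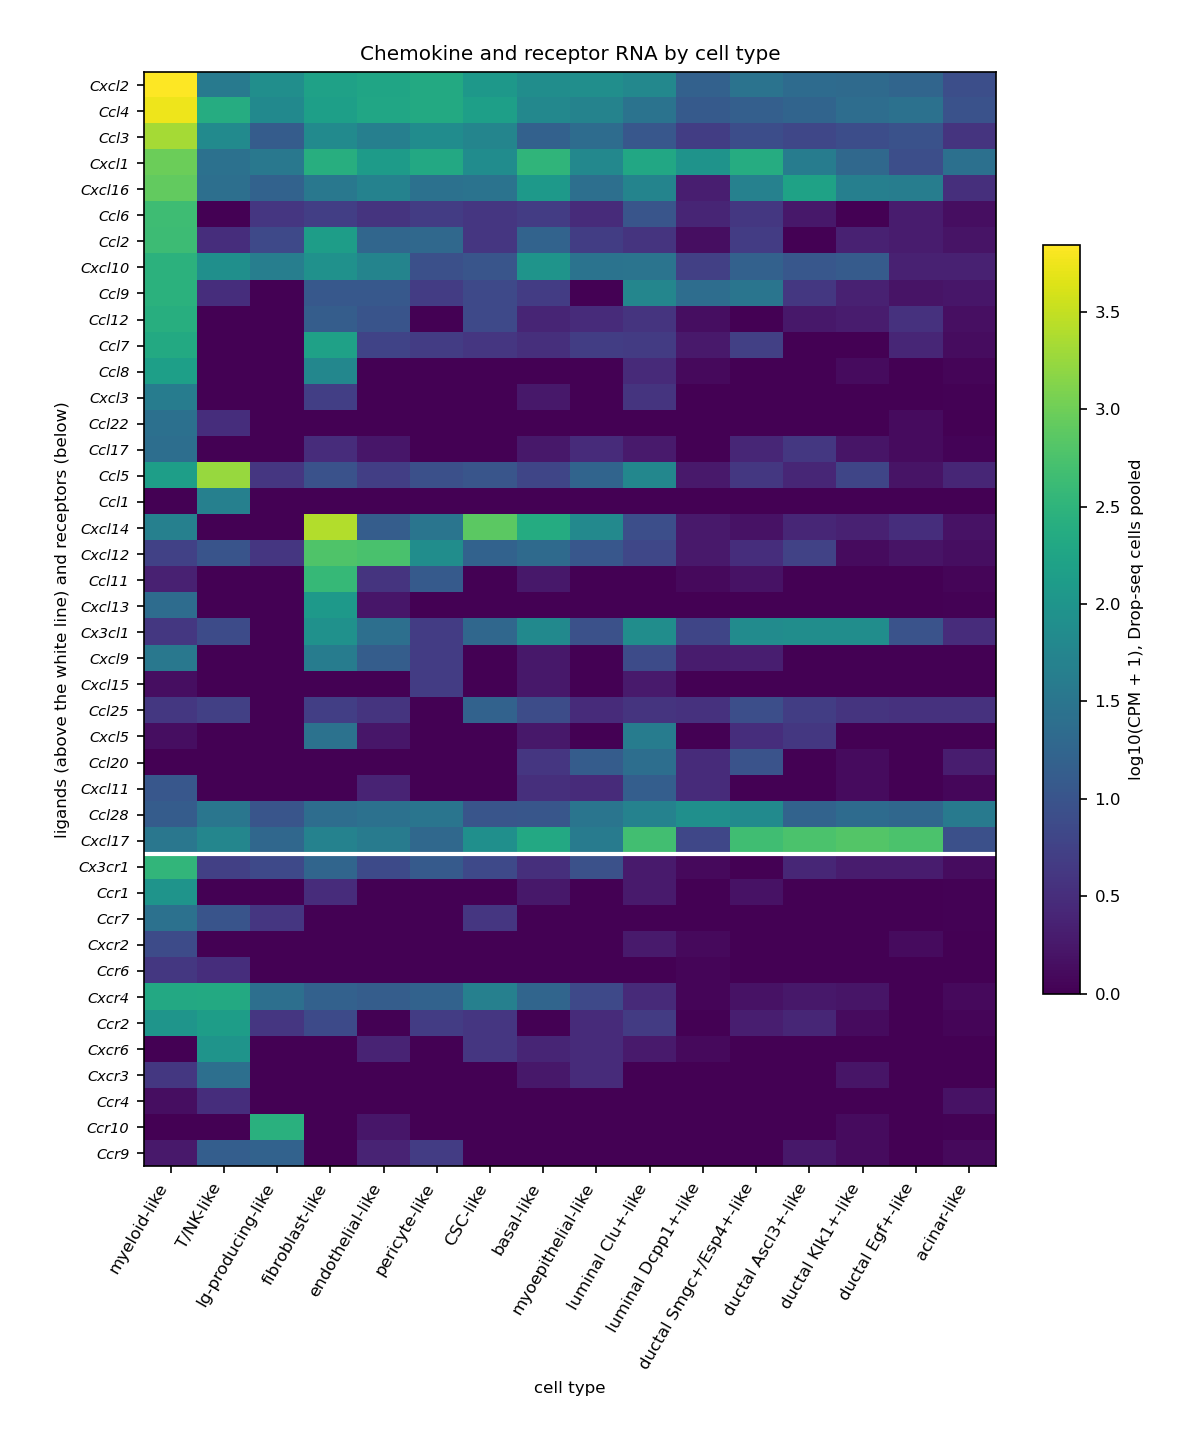
Pooled level of chemokine and receptor genes (rows, ligands above the white line) in each named cell type of the Drop-seq glands (columns), as log10(CPM + 1) in colour. The brightest entries are Cxcl2 and Ccl4 in the myeloid-like column, at 6976 and 5603 CPM, followed by Cxcl14 in the fibroblast-like column, at 2555.

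Clustering the leukocytes alone divided the myeloid-like cells. In the Mmp12+ macrophage-like subcluster (195 Drop-seq cells), Ccl6 stood at 3454 CPM (3203 to 3720), with 63.2% of its leukocyte UMIs, and Ccl9 at 1559 (1391 to 1741). In the C1q+ macrophage-like cells (850 cells), the same genes stood at 395 and 259 CPM, while Ccl8 stood at 522 CPM (464 to 584) with 84.3% of its leukocyte UMIs, found in 30 cells, against 134 in the Mmp12+ cells. The interferon-responding subcluster (112 cells) had the highest Cxcl10 (1610 CPM), Ccl12 (1235), Cxcl9 (305) and Ccl4 (11354). In the 35 neutrophil-like cells, Cxcr2 stood at 1063 CPM (14 UMIs) and Ccr1 at 759 (10 UMIs). T-like and NK-like cells split the lymphoid members, with Ccl5 at 4113 CPM in T-like and 2390 in NK-like cells, and Cxcr6 at 356 CPM in T-like cells. A further 1447 leukocytes were in subclusters that could not be named.

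The share of the leukocytes themselves differed between genotypes. Myeloid-like cells made up between 0.779% and 12.4% of kept cells in the 12 control glands (median 4.16%) and between 6.29% and 31.5% in the 14 double-mutant glands (median 14.1%). The mean difference was 10.5 percentage points (two-sided permutation test over glands, p = 0.00064). Ig-producing-like cells, the carriers of Ccr10, had medians of 0.106% and 1.1%, a mean difference of 1.13 points (p = 2e-05, the smallest these permutations can give). The T/NK-like share had medians of 0.928% and 1.90%, a mean difference of 1.35 points that did not pass the same permutation test (p = 0.117). These shares moved with the whole-gland levels above, and their part in them was not tested.

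Within myeloid-like cells alone, summed per gland (10 control and 14 double-mutant glands with at least 10 such cells), 3 of 18 tested members were higher and 0 lower in double-mutant glands, beside 5.23% of 1663 genes called higher and 8.96% in either direction. Ccl6 ranged from 0 to 205.1 CPM (median 84.0) in control and from 190.8 to 1593 (median 513.8) in double-mutant myeloid-like cells, a log2 change of 2.34 ± 0.42 (adjusted p = 0.000948). Ccl9 had medians of 86.5 and 325.3 CPM and changed by 1.28 ± 0.25 (adjusted p = 0.0021). Ccl8 had 3 UMIs in the myeloid-like cells of these 10 control glands and 329 in those of the double-mutant glands, with 7 of 10 control and 4 of 14 double-mutant glands at 0, and changed by 4.51 ± 1.03 (adjusted p = 0.00746). Ccl8 met the low-count filter of this fit through the double-mutant glands, where it was high. Its call also depended on the minimum of 10 cells, which left out control P90 replicate 3, where 5 myeloid-like cells held 24 Ccl8 UMIs. With every gland that had a myeloid-like cell, Ccl8 changed by 1.37 and did not pass (adjusted p = 0.375), while Ccl6 (2.43, adjusted p = 0.000165) and Ccl9 (1.36, adjusted p = 0.00095) did. Ccl8 UMIs were found in 41 of all 2567 myeloid-like cells.

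The members with the most UMIs did not pass within these cells. Cxcl2 had medians of 5578 CPM in control and 7602 in double-mutant myeloid-like cells (0.15 ± 0.25 on the log2 scale, adjusted p = 0.786), Ccl4 of 4891 and 5672 (-0.46 ± 0.28, adjusted p = 0.339) and Cx3cr1 of 302.8 and 365.5 (0.03 ± 0.21, adjusted p = 0.96). Ccl3 had medians of 2417 and 2079 CPM (-0.74 ± 0.26, adjusted p = 0.0684), Ccl2 changed by 0.12 ± 0.24 (adjusted p = 0.825) and Cxcr4 by 0.88 ± 0.38 (adjusted p = 0.152). The ranges of Cxcl2, Ccl4 and Cx3cr1 overlapped between genotypes. For Ccl4 the median was higher in double-mutant cells while the fitted change was below 0. Unlike the medians, the fit scales libraries by TMM and holds sex and stage. A smaller myeloid-like cluster, led by S100a8, Gpnmb and Mmp12, made up 3.25% of control and 13.9% of double-mutant myeloid-like cells. In the larger cluster alone (2259 cells), Ccl6 changed by 1.28 (adjusted p = 0.0297) and Ccl8 by 4.65 (adjusted p = 0.00593), while Ccl9 changed by 0.57 and lost its call (adjusted p = 0.171). With at least 30 cells per gland Ccl8 lost its call (adjusted p = 0.0611).

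**Figure D4:**
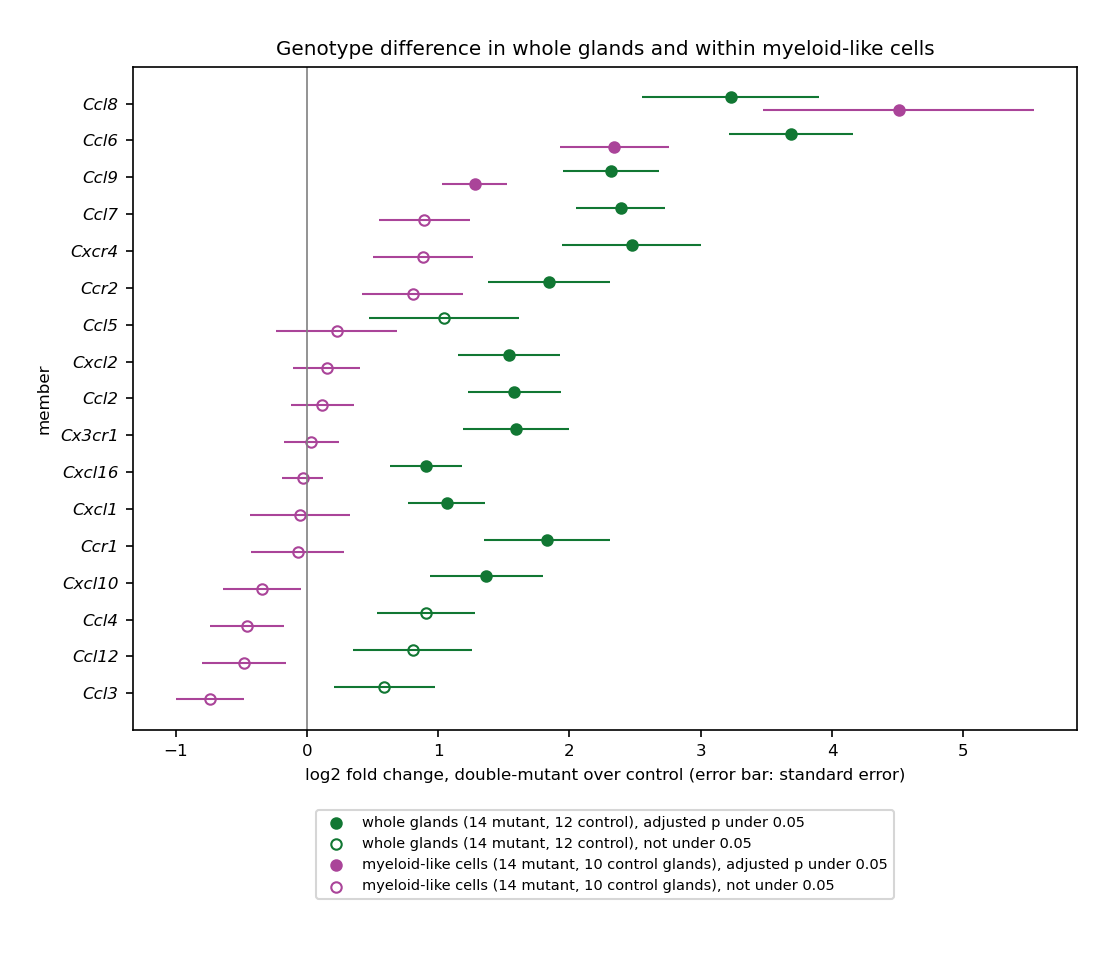
Log2 change between double-mutant and control glands (x axis, bars of 1 standard error) in whole glands (green) and within myeloid-like cells summed per gland (purple) for members tested in both (y axis), filled where the adjusted p is under 0.05. Ccl6, Ccl8 and Ccl9 are filled in both (Ccl8 within myeloid-like cells only with the 10-cell minimum), while Cxcl2 and Cx3cr1 are filled in whole glands and lie at 0.15 and 0.03 within myeloid-like cells.

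In basal-like cells (8 control and 13 double-mutant glands), Cxcl14 was the single member called of 4 tested, beside 8.89% of 1260 genes called higher. It had 5 UMIs in the basal-like cells of those control glands and 293 in those of the double-mutant glands, with medians of 4.75 and 238.9 CPM (4.75 ± 0.85 on the log2 scale, adjusted p = 0.000796). With so few control UMIs, Cxcl14 met the low-count filter of this fit through the double-mutant glands, where it was high. The call therefore adds no support beyond the counts. Basal-like cells are in the lineage that K14-Cre marks. Of all Cxcl14 UMIs, fibroblast-like cells held 81.2% in control glands and 57.9% in double-mutant glands, where basal-like cells held 17.3% and CSC-like cells 14.3%. In endothelial-like cells Cxcl12 had medians of 265.6 and 885.5 CPM and did not pass (1.15 ± 0.34, adjusted p = 0.153, with 0.0967% of 1034 genes called in either direction). In luminal Dcpp1+-like cells Ccl9 did not pass either (1.88 ± 0.48, adjusted p = 0.0628). Over these and the acinar-like, ductal and T/NK-like cells, 0 of 25 tests of a member in a type passed with edgeR, and 10 had an unadjusted p under 0.05. DESeq2, which fitted 9 types with myoepithelial-like cells among them, called 4 of 95 such tests. Its share over all genes is not given, and the background that follows is that of edgeR. The background there, in either direction, was 2.34% of genes in acinar-like, 0.552% in luminal Dcpp1+-like, 0.328% in T/NK-like, 1.19% in ductal Ascl3+-like, 0.0749% in ductal Egf+-like, 0.580% in ductal Klk1+-like and 1.77% in ductal Smgc+/Esp4+-like cells. In myoepithelial-like cells no member could be tested with edgeR. Fibroblast-like cells were too few in control glands to be fitted, so Cxcl14, Ccl11 and Cxcl13 were not tested within them.

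Setting each ligand beside the receptor it is known to bind, 25 of 31 listed pairs had both partners among the members, and the leading types were the same in 8 and different in 17. In 16 of the 25 the leading type of at least 1 partner was not above its second type beyond the counting interval, as for the pairs of Ccr2, Ccr4, Ccr6 and Ccr9, and in the other 9 the types were the same in 5 and different in 4. Cxcl12 led in fibroblast-like and endothelial-like cells and Cxcr4 in T/NK-like and myeloid-like cells. Cxcl16 led in myeloid-like and Cxcr6 in T/NK-like cells, and Ccl28 in epithelial and Ccr10 in Ig-producing-like cells. The pairs within myeloid-like cells included Ccl3 with Ccr1, Ccl6 and Ccl9 with Ccr1, and Cxcl1, Cxcl2 and Cxcl3 with Cxcr2, whose UMIs lay mostly in the neutrophil-like subcluster (14 of 16). These are places of RNA, with no measure of binding.

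An antibody tag against CX3CR1 was counted in the same CITE-seq cells. In myeloid-like cells it made up between 0.120% and 0.253% of tag counts in the 4 libraries, below its share in acinar-like cells (0.915% to 1.06%) in each of them. The mIgG2a isotype tag, which binds no mouse target by design, made up 0.276% to 0.542% of the tag counts of the same myeloid-like cells, more than the CX3CR1 tag. Myeloid-like cells with a Cx3cr1 UMI and those without had nearly the same tag share, for example 0.235% and 0.224% in double-mutant replicate 1. The tag therefore gave no reading of CX3CR1 protein above background here, whereas the Cx3cr1 transcript stood at 530.3 CPM in the myeloid-like CITE-seq cells.

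In bulk RNA of undissociated glands, 1 library per genotype of 34515744 and 34729551 reads, 31 members had over 3 reads in both. Of these, 9 were over 2-fold higher in the double-mutant library and 0 over 2-fold lower. Among 14795 genes with over 3 reads in both, 717 (4.85%) were over 2-fold higher and 1305 over 2-fold lower. That minimum left out Ccl20 (16 control and 2 double-mutant reads) and Ccr9 (9 and 3). It also left out Ccl2 (3 and 24), Ccl7 (3 and 18) and Cxcl5 (0 and 17), which went the other way. With 1 library each, at different ages, there is no replicate check. Values are in TPM, transcript levels divided by length and scaled to a common total. Ccl8 rose from 1.54 to 17.7 TPM (31 and 353 reads), Ccl12 from 0.284 to 1.62, and Ccl6 from 1.64 to 3.87. Cxcl14 stood at 11 and 10.2 TPM, and Ccl11 at 6.81 and 7.30, so their differences in single-cell glands were not seen between these 2 libraries. The epithelial ligands Cxcl17 (42.7 and 30.1 TPM) and Ccl28 (34.3 and 18.5) were the members with the highest levels in bulk.

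Cxcl2, Ccl4 and Ccl3, with many UMIs in dissociated cells, had few reads in bulk. Cxcl2 had 1 and 3 reads (0.0123 and 0.0372 TPM), beside Drop-seq medians of 136.1 CPM in control and 450.9 in double-mutant glands. Ccl3 had 4 reads in each, Ccl4 had 6 and 18, and Cxcl3 had 0 in both, beside Drop-seq medians of 59.3 and 122.9 CPM for Ccl3 and 121.7 and 345.4 for Ccl4. Immediate early genes, induced within minutes of disturbing a cell, are given beside these because tissue was digested for the single-cell libraries only. A list of 14 of them, chosen after the data were seen, had medians of the summed level of 4499 CPM in control and 7303 in double-mutant glands at P40, and of 6403 and 9072 at P90. In the whole-gland fit 4 of its 13 tested genes were higher and 1 lower in double-mutant glands, beside 14.4% of all genes called higher and 22.0% in either direction. Their part in the Cxcl1, Cxcl2, Ccl3 and Ccl4 values was not tested.

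**Figure D5:**
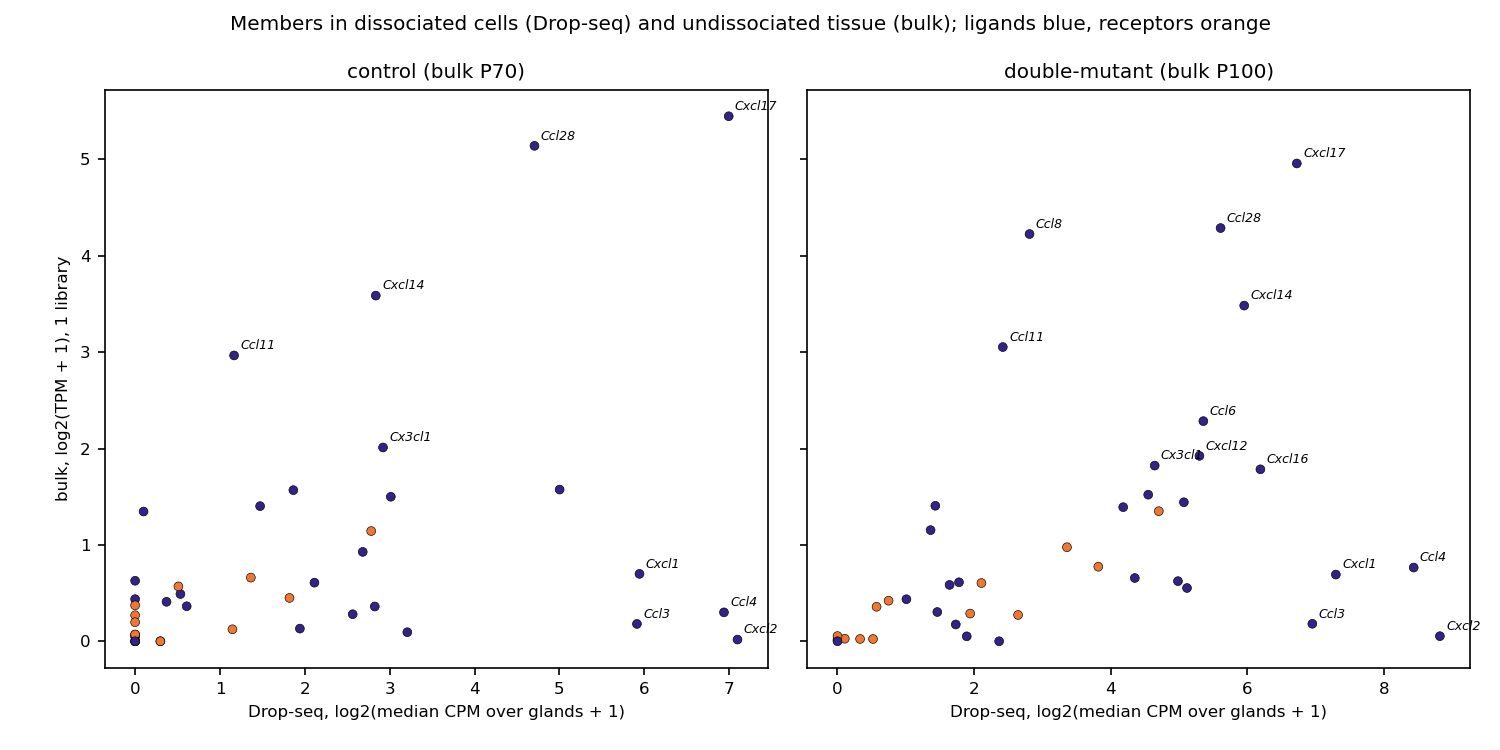
Level of chemokine and receptor genes in 1 bulk library, as log2(TPM + 1) (y axis), against their median over Drop-seq glands, as log2(CPM + 1) (x axis), for control (left) and double-mutant glands (right), with ligands blue and receptors orange. Cxcl2, Ccl4, Ccl3 and Cxcl1 lie at the lower right of both panels, while Cxcl17 and Ccl28 lie high on the bulk axis.

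Many members lie in clusters of neighbouring genes in mm10, the build of the bulk annotation. Chromosome 11 holds 14, of which Ccl2, Ccl7, Ccl11, Ccl12 and Ccl8 lie between 82035571 and 82116799 and Ccl5, Ccl9, Ccl6, Ccl3 and Ccl4 between 83525778 and 83664683. In the second run Ccl6 and Ccl9 were called in whole glands and Ccl3, Ccl4 and Ccl5 were not, and the difference between neighbours was not tested. Chromosome 5 holds 9, with Cxcl5, Cxcl3, Cxcl15, Cxcl1 and Cxcl2 between 90759360 and 90905938, and Cxcl9, Cxcl10 and Cxcl11 between 92321347 and 92365485.

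A promoter window of 300 bases, from 250 before to 50 after the start, was given by RefSeq (GRCm38.p6) for 31 of the 43 members. The pattern of GGGA, 2 bases of any kind and TTCC, which factors of the NF-kappaB family can bind, was searched on both strands and occurred in 1.47% of the 32851 windows and in 5 members, Ccl1, Cxcl1, Cxcl2, Cxcl3 and Cxcl10. Its stricter case, with CT as the bases between, occurred in 0.155% of windows and 0 members. TTCNNNGAA occurred in 8.3% of windows and 3 members (Ccl17, Ccr6 and Cxcl14), and TGACTCA in 5.2% and 4 (Ccl28, Ccr4, Cxcl9 and Cxcl10). The 200 bases before the start are shown for the 3 neutrophil-attracting ligands Cxcl1, Cxcl2 and Cxcl3, called higher in double-mutant glands, and for Cxcl10, in lower case with the matches of that pattern in capitals, read from 5′ to 3′ on the strand of the gene.
Cxcl1, chr5:90891045-90891244, plus strand: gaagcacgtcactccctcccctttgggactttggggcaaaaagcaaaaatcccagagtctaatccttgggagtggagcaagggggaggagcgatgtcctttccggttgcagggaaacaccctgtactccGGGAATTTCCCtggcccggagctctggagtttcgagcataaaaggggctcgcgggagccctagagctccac
Cxcl2, chr5:90903699-90903898, plus strand: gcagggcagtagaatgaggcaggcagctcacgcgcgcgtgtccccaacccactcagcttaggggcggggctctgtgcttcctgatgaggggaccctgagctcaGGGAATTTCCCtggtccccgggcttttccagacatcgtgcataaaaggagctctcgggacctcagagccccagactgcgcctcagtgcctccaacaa
Cxcl3, chr5:90785901-90786100, plus strand: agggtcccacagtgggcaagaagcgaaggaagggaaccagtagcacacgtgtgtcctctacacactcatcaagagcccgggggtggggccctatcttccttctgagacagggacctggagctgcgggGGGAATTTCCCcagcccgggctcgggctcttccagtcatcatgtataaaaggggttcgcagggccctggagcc
Cxcl10, chr5:92348890-92349089, minus strand: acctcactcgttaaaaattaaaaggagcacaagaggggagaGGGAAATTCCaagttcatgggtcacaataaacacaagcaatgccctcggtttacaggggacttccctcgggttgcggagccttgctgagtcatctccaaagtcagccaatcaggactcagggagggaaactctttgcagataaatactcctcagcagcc
In Cxcl1, Cxcl2 and Cxcl3 the match read GGGAATTTCC on the strand of the gene and began 71, 97 and 73 bases before the start, overlapping a match on the other strand by all but 1 base. In Cxcl10 it read GGGAAATTCC and began 159 bases before. A match is a description of these letters and no measure of binding.

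Genes that work with chemokines were read from 4 fixed lists. In whole glands, 12 of 15 tested genes of adhesion and matrix trimming (21 listed) were higher in double-mutant glands, as were 8 of 13 inducing cytokines and factors (18 listed), 10 of 18 genes of receptor signalling (21 listed) and 3 of 6 other chemokine-system genes (16 listed), with 0 lower in any of them. The 3 were the scavenger receptor Ackr3 (1.59 ± 0.50), the atypical receptor Ccrl2 (1.07 ± 0.38) and Pf4 (1.76 ± 0.43), a CXC ligand of platelets and macrophages. These counts stand beside the same background of 14.4% as those of the members.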

How the data were processed

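Submandibular glands were profiled by Drop-seq (26 libraries), CITE-seq (4 libraries, each with RNA and antibody tags) and bulk RNA-seq (2 libraries). The single-cell tables were deposited by the authors as UMI counts per gene and cell, made with Drop-seq tools and a GENCODE annotation of mm10 with Cre and EYFP added; the bulk tables hold read counts deposited by the authors from STAR and featureCounts (mm10, per the labels). Tag tables are counts as deposited, and whether they are reads or UMIs was not given in the sources used here. Groups follow the labels. According to the study, each biological replicate was the cells of a single gland. The sample titles name no animal, so treating each library as a separate animal is an assumption of the tests over glands. CITE-seq cells were mixed with a few human cells by the authors, which the filters below did not single out. An unnamed cluster of 191 cells found only in CITE-seq stayed in the P70 totals. It held 48 and 91 cells of the control and 32 and 20 of the double-mutant libraries, and whether they were human was not tested. Without it, each member called at P70 kept its call.

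From these, cells with at least 100 genes and under 15% mitochondrial UMIs were kept (CITE-seq also under 2500 genes). No doublet caller was run; results without the 5% of cells with the most UMIs were computed instead. Kept UMIs were summed per gland and fitted over all genes with edgeR 4.0.16 (TMM, filterByExpr, quasi-likelihood test, Benjamini-Hochberg adjustment over all genes tested, threshold 0.05). Log2 changes are double-mutant over control with their standard errors. Drop-seq fits held sex and stage beside genotype, and the CITE-seq fit held genotype alone. Cells were clustered with scanpy 1.11.5 and leidenalg 0.10.2 (2000 variable genes without the members, 30 components, resolution 1.0), and a cluster was named where at least 3 markers of a type led in it. Within a type, UMIs were summed per gland with at least 10 such cells. Bulk counts were divided by exon length to TPM. For shares per gland a permutation test was used (two-sided, 100000 resamples). Alternatives were no filter, upper-quartile normalization, DESeq2 1.42.0, all barcodes, thinning, other cell and cluster settings, and leaving out libraries; some were added after the data were seen. On simulated counts of the whole-gland design, 49 of 50 genes raised 4-fold and 12 of 50 raised 2-fold were called, and 6 of 9551 unchanged genes.

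Members are named, except 1 that stays in the counts and is not reported here on its own, with group values for those called in any comparison or among those with the most UMIs; other genes come from fixed lists. The members and lists were chosen with earlier results of these data known. Multigene families can share reads between close copies. Protein sequences were not used here.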

Additional observations from a re-analysis of the deposited data

Results flagged for a closer look

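Of 120 sets of 1 member in 1 group of Drop-seq glands (30 members, 4 groups), 28 held a library whose value lay far from the others of its group by Dixon's criterion. That criterion marks about 1 set in 20 by chance where values are normally distributed, a rate that does not hold for CPM, which are bounded at 0 and skewed, so that high values are marked more readily than low ones. On the log2(CPM + 1) scale 8 sets passed it. Each of the 28 values was high, and for Cxcl13 in P40 controls and Ccr7 in P90 controls every other library was at 0. The library labelled double-mutant P90 replicate 5, whose sex genes went against its label, held 7 of them. Its CPM were 203.8 for Ccl6 (next library 93.3), 164.8 for Ccl9 (69.2), 189.3 for Cxcr4 (73.9), 67.9 for Ccr2 (28.0), 37.6 for Cxcl3 (13.6), 30.3 for Ccr1 (13.7) and 5.78 for Cxcr6 (1.25).

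Control P40 replicate 1 held 5, at 34.4 CPM for Ccl5, 10.3 for Cxcr4, 7.31 for Ccr2, 6.02 for Ccl6 and 1.29 for Cxcl13, with the next library at 8.70, 3.60, 2.10, 2.05 and 0. Double-mutant P40 replicate 2 held the T-cell attracting ligands Ccl4 (1369 CPM), Ccl3 (596.1) and Ccl5 (275.2). Double-mutant P40 replicate 5 stood apart in Cxcr4 (106.1 CPM), Ccr7 (19.99), the lymph-node homing receptor, and Cxcl5 (13.8). Control P90 replicate 6 stood apart in Ccl5 (90.3 CPM), Cxcr6 (3.45) and Ccr7 (1.15). The single cases were Ccl12 (20.1 CPM) and Ccl8 (0.600) in control P40 replicate 2, Cxcl13 (2.62) in double-mutant P40 replicate 4, Ccl28 in double-mutant P90 replicate 6 (122.1) and control P90 replicate 1 (45.7), Cx3cl1 (38.8) in control P90 replicate 2 and Ccl8 (14.9) in control P90 replicate 3, whose next library had 0.588. Why these libraries stood apart was not tested.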

How the results depend on the processing

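Over 59 gene results, 1445 alternative values kept their call and direction, 128 kept the direction and lost the call, 0 reversed, and 33 results kept their call throughout. Upper-quartile normalization left the counts of members called in whole glands (19), at P40 (5) and at P90 (13) as they were. Without a filter on low counts the counts became 30 in whole glands (29 of them higher), 24 at P40, 23 at P90, 2 for the interaction, 7 for stage in double-mutant glands, 8 for stage in controls and 18 within cell types (from 4). The whole-gland fits then tested all 43 members and 29219 genes. Of all genes, 2137 were called higher and 780 lower over both stages, 1139 and 174 at P40, and 1258 and 551 at P90. For the interaction 55 and 134 were called, for stage in double-mutant glands 527 and 100, and for stage in controls 1307 and 216. DESeq2 gave 13 of 36 tested members at P40, beside 573 of 15034 genes called higher and 67 lower. It gave 3 of 37 for stage in controls, beside 830 of 16164 genes higher at P90 and 113 lower. Within cell types it gave 8, and no share over all genes is given for the counts within cell types. With all barcodes the count at P40 was 3 of 31 (111 of 11754 genes higher and 14 lower). With libraries thinned to equal totals it was 2 of 20 (26 of 6086 genes higher and 6 lower). Without the 2 libraries of doubtful sex it was 8 of 27 at P90 (244 of 11122 genes higher and 124 lower). Leaving out 1 library gave 18 to 22 in whole glands, 1 to 15 at P40, 6 to 14 at P90, 11 to 18 in CITE-seq, 0 to 2 for stage in controls, 3 to 4 within myeloid-like cells and 1 within basal-like cells; it gave 0 for the interaction and for stage in double-mutant glands. Replicate numbers did not pair the libraries (same-number correlation of deviations, median 0.0475, -0.357 to 0.513 over 37 pairs), and a replicate block, which tested 37 members, gave 29 in whole glands (27 higher; 29.5% of all genes called), 14 at P40 (6.82%), 20 at P90 (18 higher; 13.7%) and 1 for stage in controls (4.14%); the 2 lower were Ccl25 and Cxcl17 in both cases. With every gland that had a myeloid-like cell, an alternative chosen after seeing the data, 2 members were called within those cells in place of 3. When 1 library was left out, the calls over all genes shifted too, for example to 506 of 11928 higher at P40 without control P40 replicate 2. The cause of these shifts was not tested. Depth limits the 18 members not tested in the filtered whole-gland fit. Among them Cxcl15 and Ccr6, with 11 and 10 Drop-seq UMIs, did not stand above their second cell type beyond the counting interval.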

Other observations

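The leading cell type of a member was the same in the Drop-seq and the CITE-seq cells for 28 of the 43 members. Types with few cells were left out of this ranking in Drop-seq but not in CITE-seq, which lowers the count. Cxcl1 led in luminal Dcpp1+-like CITE-seq cells (1700 CPM), although CITE-seq cells made up 0% and 0.310% of the 2 clusters of that type. Cxcl15 had 0 UMIs in the CITE-seq cells, so its leading type there has no meaning. In the CITE-seq cells, which were not fixed, the monocyte attractants Ccl2 and Ccl7 stood higher in fibroblast-like cells (516.2 CPM, 415.6 to 633.8, and 465.1 CPM, 369.9 to 577.4, over 151 cells) than in myeloid-like cells (321.1 and 183.8 CPM over 591 cells). Ccl8 stood at 209.9 CPM in the fibroblast-like and 52.8 in the myeloid-like CITE-seq cells, while in Drop-seq cells it stood at 58.4 and 145.4. Cxcl13 stood at 414.1 CPM in the fibroblast-like CITE-seq cells (73 UMIs) and at 6.34 in the myeloid-like ones (3 UMIs). Cxcl12 led in endothelial-like CITE-seq cells at 2110 CPM (1722 to 2559), above fibroblast-like cells at 913.3. Ccl1 stood at 294.2 CPM in the T/NK-like CITE-seq cells (55 UMIs), of which 32 lay in 1 NK-like cell and 23 in 4 T-like cells. Stage, fixation and batch all differ between these 2 sets of libraries and cannot be told apart.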
